A study of Mus musculus with 8 samples.

Results

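The epithelium that lines the bile ducts was followed in mouse liver through 9 marker genes, Krt19, Krt7, Epcam, Cldn7, Sox9, Spp1, Cftr, Sctr and Pkhd1, out of 26866 gene symbols on the array. They were taken as every probe whose gene symbol, or an older synonym with the same Entrez ID, was one of these names, which gave 15 probes. Total liver RNA came from female NFS/sld mice, which develop a disease used as a model of primary Sjögren's syndrome, autoimmunity against salivary and tear glands, when they lose the thymus as newborns. The Tx group (4 arrays) held livers of mice thymectomised on day 3 after birth, taken 8 weeks after the operation, and the nonTx group (4 arrays) held livers of female NFS/sld mice that kept their thymus. Age is not stated for the nonTx mice, nor is a sham operation. The replicates are called independent in the labels, without a statement that each came from its own mouse, so the p-values reflect only the spread among these RNA samples, which may be technical. The question put to these markers is whether the duct lining of the liver differs in RNA after thymectomy.

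Bile duct cells, or cholangiocytes, form the tubes that carry bile away from the hepatocytes and adjust it on the way. They carry the keratins 7 and 19, which hepatocytes largely lack, and a primary cilium that senses bile flow. Secretin acts on its receptor Sctr to open the chloride channel Cftr, and the returning chloride drives bicarbonate into bile through the exchanger Slc4a2. In people, Sjögren's syndrome can occur together with primary biliary cholangitis, in which immune cells damage the small bile ducts.

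The 250 bases before the transcription start were at hand for 6 of the 9 markers, from RefSeq on build GRCm38.p6. Those of Krt7 and Spp1 are shown because their signals followed that of Krt19 across the livers, and that of Pkhd1 because its probes differed in direction. The windows are Krt7, chr15:101412153-101412402 on the plus strand; the first listed start of Spp1, chr5:104434861-104435110 on the plus strand; and Pkhd1, chr1:20618058-20618307 on the minus strand. Each is written 5′ to 3′ along the gene, with the motifs found in capitals.
Krt7: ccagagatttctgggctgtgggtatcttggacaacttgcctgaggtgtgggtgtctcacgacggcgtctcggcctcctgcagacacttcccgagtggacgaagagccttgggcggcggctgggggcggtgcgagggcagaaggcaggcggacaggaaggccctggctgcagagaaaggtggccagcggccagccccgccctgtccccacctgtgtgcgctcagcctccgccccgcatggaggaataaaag
Spp1: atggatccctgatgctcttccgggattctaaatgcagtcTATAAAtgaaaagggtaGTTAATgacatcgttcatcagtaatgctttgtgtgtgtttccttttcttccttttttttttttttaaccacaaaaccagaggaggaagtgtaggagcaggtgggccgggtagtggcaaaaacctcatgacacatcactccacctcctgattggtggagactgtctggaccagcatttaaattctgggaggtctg
Pkhd1: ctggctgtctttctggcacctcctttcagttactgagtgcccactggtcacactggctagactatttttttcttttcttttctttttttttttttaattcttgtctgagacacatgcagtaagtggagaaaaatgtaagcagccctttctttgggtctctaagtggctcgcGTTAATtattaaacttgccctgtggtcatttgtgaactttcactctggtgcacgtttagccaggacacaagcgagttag
The letters searched on both strands were GTTAAT, a core of the sites of the duct and liver factor HNF1, present in 6.43% of 32851 such windows of all genes, TATAAA, the TATA box, in 12.4%, TGGGAA, the core of the Notch effector RBPJ, in 21.6%, and GGAATG, the core of TEAD factors, in 12.6%. The Pkhd1 window held 1 HNF1 core, which began 79 bases before the start. The Spp1 window held 1 HNF1 core at 194 bases and 1 TATA box at 211 bases before the start, which do not overlap. None of the 4 motifs lay in the Krt7 window, nor in that of the other listed Spp1 start, which is not shown. Among windows not shown, that of a Cldn7 start held 1 TEAD core at 70 bases. That of another Cldn7 start held 1 RBPJ core at 164 bases before the start. These matches describe the letters and do not show that a factor binds there.

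The markers were unevenly visible in whole-liver RNA. Signals are given as a percentage of the array's own 75th percentile, so that 100% equals that percentile, and the brightness of one probe is not comparable with that of another. Of the 15 probes, 7 were well above background on all 8 arrays, covering Krt19, Sox9, Spp1, Pkhd1 and Cldn7, and 3 were well above it on none. Testing required a signal well above background on 3 or more of the 4 arrays of either group, which held for 8 probes of 6 markers. Krt7 was among them only through its nonTx arrays. Epcam, Cftr and Sctr had no tested probe. Thus 5 of the 9 markers were measured on every array, some of which other liver cells also make. The tissue label held as well, since the 8 hepatocyte markers, among them Alb (albumin), averaged between 7.97 and 8.20 in Tx and between 8.00 and 8.16 in nonTx on the log2 scale, counted from the 75th percentile.

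None of the 8 tested probes passed the test between Tx and nonTx livers. By limma, 0 of them had an adjusted p under 0.05 over the 30957 probes tested, and 0% of all probes did (0 of 30957). At an unadjusted p under 0.05, 1 of the 8 was lower in Tx, against 6.03% of all probes lower, and 0 were higher, against 7.17% of all probes. No marker probe separated the groups, where 4.47% of all probes lay higher on every Tx array than on any nonTx array and 3.4% lower. With each marker taken by its brightest tested probe, 2 were higher and 4 lower in Tx. Their median log2 difference was -0.084, against 0.032 over all 16497 tested genes. The count and the median include Krt7, which had to be high in nonTx to enter, and the median was -0.012 over the 5 markers that were well above background on all arrays. None of these 6 probes had an unadjusted p under 0.05, which 13.9% of all tested genes had in either direction. In whole liver, fewer duct cells and less of an RNA per duct cell cannot be told apart.

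**Figure D1:**
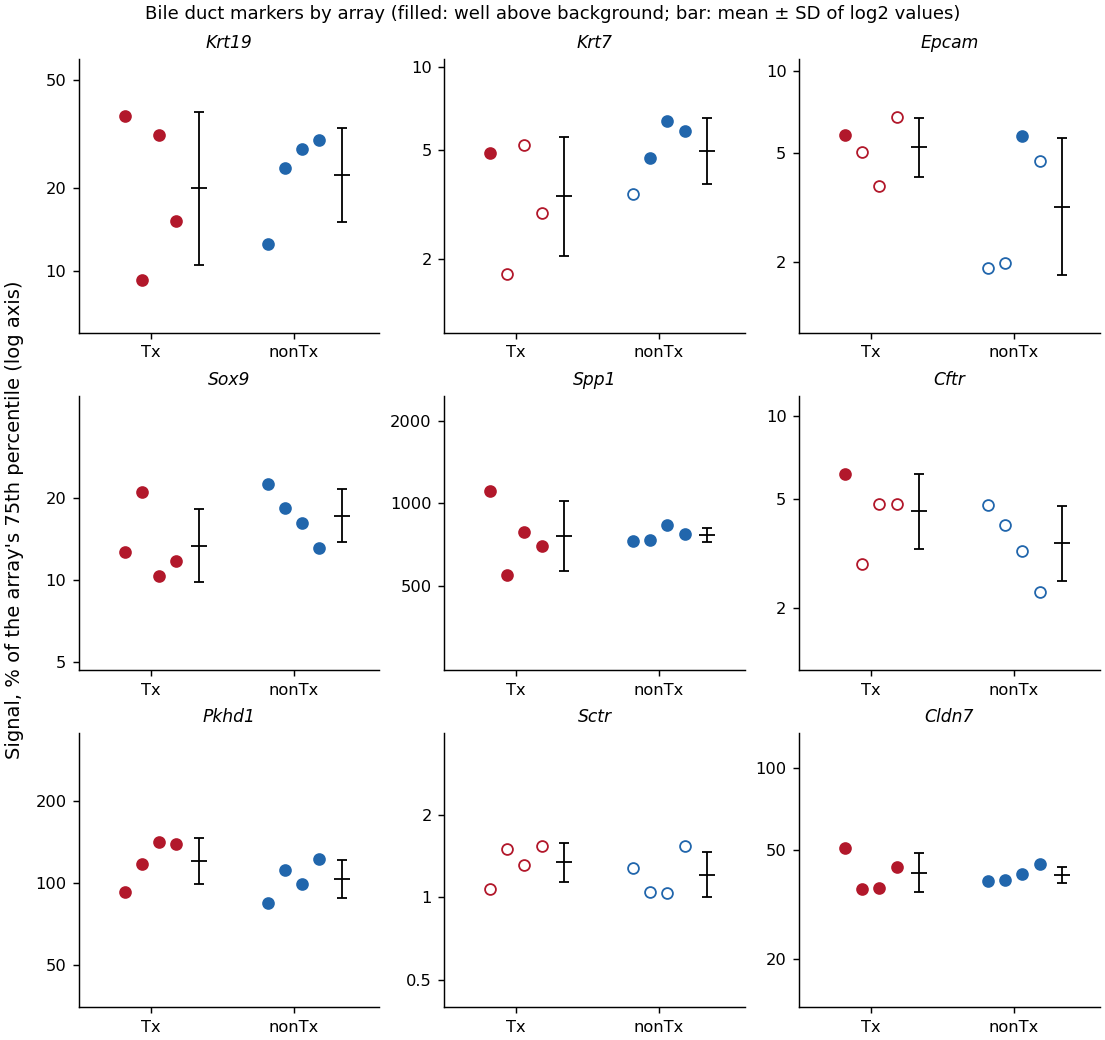
Signal of the brightest probe of each of the 9 markers on each array, as a percentage of the array's 75th percentile (log axis), for Tx (red, left) and nonTx (blue, right). Filled points were well above background, open points were not, and the bar gives mean ± SD of the log2 values (n = 4 arrays per group). The groups overlap for every marker, and the Tx points of Krt19 and Spp1 spread more widely than the nonTx points.

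The keratins, which mark duct cells but are also made by the cells that cover the liver, did not differ beyond the spread between replicates. This holds for the comparison of Tx with nonTx livers. Krt19, which encodes an acidic keratin of duct cells, stood at 36.8%, 9.24%, 31.3% and 15.3% in Tx replicates 1 to 4, against 12.6%, 23.8%, 27.8% and 30.0% in nonTx replicates 1 to 4. The Tx livers held both the highest and the lowest value, and the groups overlapped. The log2 difference was -0.16 ± 0.44 (SE, n = 4 arrays per group; 95% interval -1.13 to 0.82; limma adjusted p = 0.891; exact two-sided permutation p = 0.83). The interval leaves room for a change of either sign. Without Tx replicate 2 the difference was 0.22, the other direction. On the log2 scale the SD of Krt19 was 0.93 among Tx livers and 0.57 among nonTx livers.

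Krt7, the basic keratin found in duct cells, stood at 4.85%, 1.76%, 5.19% and 2.94% in Tx and 3.44%, 4.66%, 6.38% and 5.88% in nonTx. It was well above background on 1 Tx array and 3 nonTx arrays, so most of its Tx values lie in the range of background. Its log2 difference was -0.55 ± 0.39 (SE, n = 4; 95% interval -1.42 to 0.32; limma adjusted p = 0.525; exact two-sided permutation p = 0.229). Without Tx replicate 2 it was -0.24. With normexp, another background correction, it was 0.033, so the direction rests on how the background was taken off.

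The surface and junction markers divided into one near background and one clearly measured. Epcam, the epithelial cell adhesion molecule, stood at 5.85%, 5.06%, 3.81% and 6.81% in Tx and 1.91%, 1.99%, 5.80% and 4.70% in nonTx, and was well above background on 1 array of each group. It was not tested. Cldn7, a claudin of tight junctions and the lateral membrane, stood at 50.9%, 36.1%, 36.5% and 43.4% in Tx, against 38.4%, 38.8%, 40.8% and 44.4% in nonTx. The nonTx values sat inside the Tx range. Cldn7 differed by 0.027 ± 0.14 on the log2 scale (SE, n = 4; 95% interval -0.28 to 0.33; limma adjusted p = 0.943; exact two-sided permutation p = 0.857), the narrowest interval among the markers. That sign turned without Tx replicate 1 (-0.074) and with scaling to probes above background (-0.029). A second Cldn7 probe, well above background on 2 Tx arrays and 1 nonTx array, ran from 4.77% to 7.68% in Tx and from 1.92% to 7.02% in nonTx and was not tested.

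Sox9, the transcription factor that marks duct cells and the embryonic ductal plate, was lower on average in Tx without passing the test. Its brighter probe read 12.6%, 20.9%, 10.3% and 11.7% in Tx livers and 22.5%, 18.4%, 16.1% and 13.1% in nonTx livers. Of the Tx values, 3 lay below every nonTx value, and Tx replicate 2 lay among the highest. The log2 difference was -0.36 ± 0.25 (SE, n = 4; 95% interval -0.92 to 0.19; limma adjusted p = 0.511; exact two-sided permutation p = 0.257), and -0.58 without Tx replicate 2. The other Sox9 probe ran from 8.19% to 9.17% in Tx and from 8.15% to 13.6% in nonTx, with a log2 difference of -0.18 ± 0.20 (SE; limma adjusted p = 0.699). With normexp the brighter probe's difference was -0.12 and this probe's 0.052.

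Spp1, which encodes osteopontin, a secreted matrix protein of duct cells and also of some macrophages, did not differ in its mean beyond the spread between replicates. It stood at 1107%, 549%, 789% and 697% in Tx, against 731%, 737%, 833% and 772% in nonTx. Tx replicates 1 and 2 bracketed all other livers. The log2 difference was -0.012 ± 0.18 (SE, n = 4; 95% interval -0.41 to 0.39; limma adjusted p = 0.98; exact two-sided permutation p = 0.943). On the log2 scale the SD was 0.42 among Tx livers and 0.087 among nonTx livers; this difference in spread was not tested. The sign was positive with normexp (0.057) or median scaling (0.088) and without Tx replicate 2 (0.14), Tx replicate 4 (0.029) or nonTx replicate 3 (0.027). The macrophage list, whose cells can hold Spp1, had 7 of its 8 genes tested. All 7 lay higher in Tx, as did 9287 of all 16497 tested genes. Their median was 0.082, against 0.032 over all tested genes. Its mean log2 level ran from 2.77 to 3.20 in Tx and from 2.71 to 3.01 in nonTx, and its smallest p belonged to Trem2, a lipid-sensing receptor, at 0.51 ± 0.19 (SE; limma adjusted p = 0.335). Its part in the Spp1 signal was not tested.

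The secretin receptor and the chloride channel were at the limit of the array in both groups. Cftr, on its brightest probe, stood at 6.15%, 2.89%, 4.76% and 4.78% in Tx and 4.74%, 3.99%, 3.21% and 2.28% in nonTx, and was well above background on Tx replicate 1 only. The other 2 Cftr probes were not well above background on any array. Sctr did not clear background on any array either, at 1.07%, 1.499%, 1.31% and 1.54% in Tx and 1.29%, 1.04%, 1.03% and 1.54% in nonTx. No fold is given for either gene, and whether they differ was not detectable here.

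Other genes of duct secretion were bright enough to measure, and all 10 on the list were tested. In whole-liver RNA their signals need not come from duct cells, and which cells gave them was not tested. In Tx 7 were higher and 3 lower, the median log2 difference was 0.10, and 0 had an adjusted p under 0.05. At an unadjusted p under 0.05, 2 were higher, against 8.65% of all tested genes, and 2 lower, against 5.25%. Slc10a2, the sodium-dependent bile acid transporter that takes bile acids up at the duct surface, read 716%, 462%, 291% and 362% in Tx, against 138%, 257%, 129.8% and 223% in nonTx. Every Tx liver lay above every nonTx liver, as for 5.11% of all genes. The difference was 1.27 ± 0.30 on the log2 scale, 2.41-fold (SE, n = 4; 95% interval 0.61 to 1.93; limma adjusted p = 0.263; exact two-sided permutation p = 0.0286, the smallest that 4 against 4 allows). A second Slc10a2 probe gave 2.43-fold (limma adjusted p = 0.247).

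Slc4a2, the chloride and bicarbonate exchanger that puts bicarbonate into bile, differed in the other direction, also without passing the test. It read 1159%, 1004%, 1237% and 1284% in Tx, against 1499.7%, 1723%, 1637% and 1327% in nonTx. Every Tx liver lay below every nonTx liver, as for 2.95% of all genes. The log2 difference was -0.40 ± 0.11 (SE, n = 4; 95% interval -0.65 to -0.16; limma adjusted p = 0.284; exact two-sided permutation p = 0.0286). Sct, the secretin gene itself, read 2.56%, 2.48%, 1.31% and 5.29% in Tx and 7.41%, 10.6%, 9.15% and 3.60% in nonTx. It was well above background on 0 Tx arrays and 3 nonTx arrays. It therefore entered the test only through nonTx, where it had to be high, and its place among the 2 lower genes is no support for a difference. No fold is given for Sct, since none of its Tx values was well above background (limma adjusted p = 0.311). With normexp its log2 difference was -0.12, against -1.47 otherwise. Vipr1, a receptor for vasoactive intestinal peptide named here after its value was seen, was the fourth gene under 0.05 unadjusted, at 0.22 ± 0.09 (SE; limma adjusted p = 0.358). Its dimmer probe gave 0.75 ± 0.29 (SE; limma adjusted p = 0.341), and the brighter one 0.062 with normexp and 0.082 with quantile normalization.

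**Figure D2:**
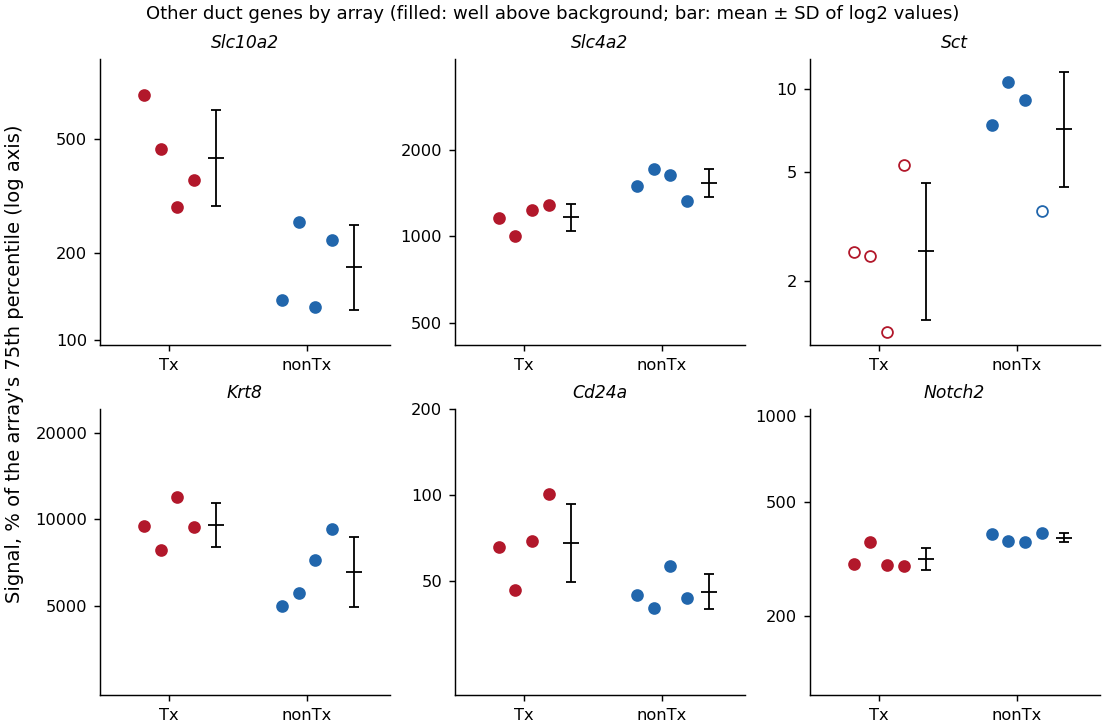
Signal of 6 named genes from the lists around the duct markers on each array, as a percentage of the array's 75th percentile (log axis), Tx left and nonTx right; bars are mean ± SD of the log2 values (n = 4 arrays per group). Slc10a2 is higher on every Tx array and Slc4a2 lower on every Tx array, while the other 4 genes overlap between the groups.

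Pkhd1 differed in sign between its 2 tested probes. The gene encodes fibrocystin, a membrane protein of the cilium whose loss causes polycystic disease of kidney and bile ducts. The probe to the RefSeq transcript read 92.8%, 118%, 141% and 138% in Tx, against 84.8%, 112%, 99.5% and 122% in nonTx. Its log2 difference was 0.22 ± 0.16 (SE, n = 4; 95% interval -0.14 to 0.58; limma adjusted p = 0.535; exact two-sided permutation p = 0.286). A dimmer probe to another Pkhd1 transcript read 10.71%, 15.8%, 8.55% and 13.7% in Tx, against 33.7%, 20.4%, 15.5% and 21.7% in nonTx. The groups met only at Tx replicate 2 and nonTx replicate 3. That probe differed by -0.89 ± 0.27 (SE, n = 4; 95% interval -1.48 to -0.29; p = 0.00761 and adjusted p = 0.297 by limma; exact two-sided permutation p = 0.0571), and it is the 1 marker probe with an unadjusted p under 0.05. With normexp its difference was -0.31. The third Pkhd1 probe was well above background on 0 Tx and 2 nonTx arrays, ran from 3.79% to 5.28% in Tx and from 2.07% to 10.6% in nonTx, and was not tested. Whether the tested probes report different transcripts was not tested.

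**Figure D3:**
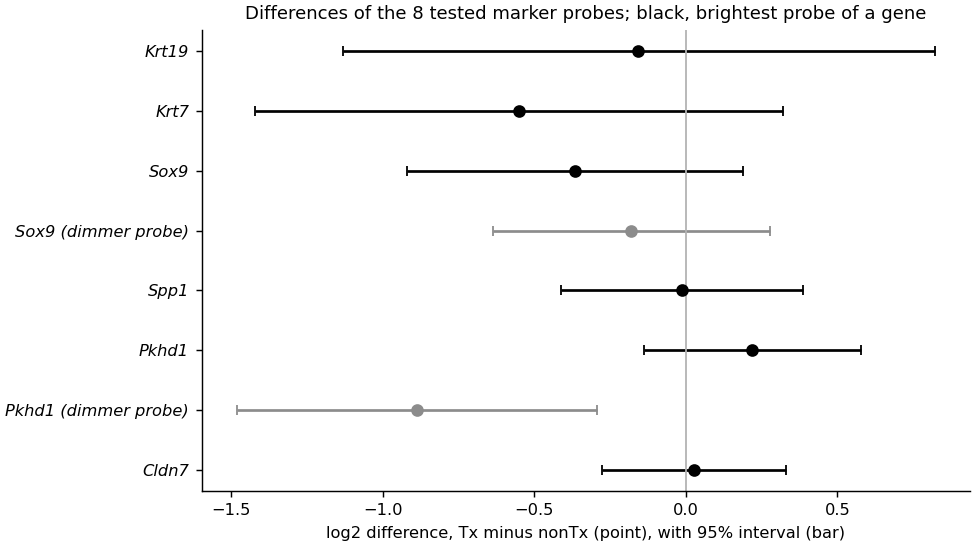
Log2 difference, Tx minus nonTx, of the 8 tested probes of the bile duct markers, with 95% intervals from limma (n = 4 arrays per group). The dimmer Pkhd1 probe, at -0.89, is the only one whose interval leaves out 0.

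The list of cilium and cystic disease genes had a median near 0. Of its 8 genes 7 were tested, 4 higher and 3 lower in Tx, with a median of 0.005. Under 0.05 unadjusted there were 0, against 13.9% of all tested genes in either direction. Pkd2, the polycystin 2 channel, differed by -0.22 ± 0.11 on its brightest probe (SE; limma adjusted p = 0.395). A dimmer Pkd2 probe, well above background on every array, gave the other sign, 0.058 ± 0.105 (SE; limma adjusted p = 0.819). The dimmest tested Pkd2 probe, which entered only through nonTx, gave -0.36 ± 0.24 (SE; limma adjusted p = 0.499). Bicc1, an RNA-binding protein linked to cystic kidneys in mice, differed by -0.11 ± 0.16 (SE; limma adjusted p = 0.753).

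Of the 12 transcription factors and Notch genes of duct formation 11 were tested. In Tx 3 were higher and 8 lower, with a median of -0.16. Under 0.05 unadjusted there was 1 in each direction, against 8.65% of all tested genes higher and 5.25% lower. Klf5, among the lower, entered the test only through nonTx, where it had to be high. Over the genes well above background on all arrays the median was -0.017. Notch2, the receptor that commits embryonic liver cells to the duct fate, read 304%, 362%, 301% and 299% in Tx, against 385%, 366%, 362% and 388% in nonTx. Tx replicate 2 stood with the nonTx livers, and the difference was -0.25 ± 0.09 (SE, n = 4; limma adjusted p = 0.324), or -0.15 with median scaling. Foxa2, a factor of hepatocytes and duct cells, read 2847%, 1949.9%, 2560.5% and 2829% in Tx and 1933%, 1901.5%, 2454% and 1718% in nonTx, a difference of 0.34 ± 0.15 (SE, n = 4; limma adjusted p = 0.362), or 0.205 with quantile normalization.

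Junction and keratin genes shared with other epithelial cells had 15 of 17 tested, 6 higher and 9 lower in Tx, with a median of -0.054. Under 0.05 unadjusted 2 were higher, against 8.65% of all tested genes, and 0 lower, against 5.25%. Krt8, a keratin of both hepatocytes and duct cells, read 9482.5%, 7808%, 12002% and 9436% in Tx, against 4972%, 5523%, 7207% and 9280.2% in nonTx. Only nonTx replicate 4 reached into the Tx range. It differed by 0.55 ± 0.20 (SE, n = 4; limma adjusted p = 0.324), and its other probe gave 1.39-fold (limma adjusted p = 0.354). Cd24a, a surface protein of duct and progenitor cells, read 65.9%, 46.8%, 69.2% and 101% in Tx and 44.9%, 40.5%, 56.4% and 43.8% in nonTx, a difference of 0.56 ± 0.21 (SE, n = 4; limma adjusted p = 0.335). Without Tx replicate 4, the highest value, the difference was 0.376. Its other probe had a limma adjusted p of 0.4.

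Genes of the ductular reaction, the spread of small ducts in injured liver, had 9 of 13 tested. In Tx 5 were higher and 4 lower, with a median of 0.053. Under 0.05 unadjusted there were 0, against 13.9% of all tested genes in either direction. The smallest p in the list belonged to Wfdc15b, at 0.61 ± 0.40 (SE; limma adjusted p = 0.497), and next came Tspan8, a tetraspanin, at 0.38 ± 0.25 (SE; limma adjusted p = 0.501). Mmp7, a protease raised in injured ducts, and Muc1, a mucin, were among the 4 not tested. Over the 5 lists, 52 of 60 genes were tested, 25 higher and 27 lower, with a median of -0.003. Among them Sct, Klf5 and St14 entered the test only through nonTx. At an unadjusted p under 0.05, 5 were higher (9.62% of 52, against 8.65% of all genes) and 3 lower, Sct among them (5.77%, against 5.25%), shares close to those of all genes.

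**Figure D4:**
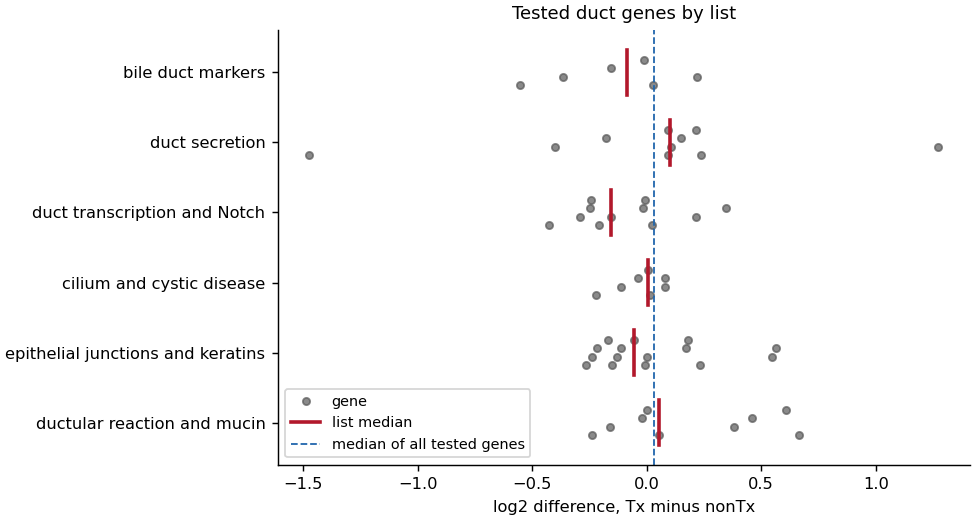
Log2 difference, Tx minus nonTx, of every tested gene of the bile duct markers and of the 5 lists around them (points), with the median of each list (bar) and the median over all 16497 tested genes, 0.032 (line). The medians of the lists lie between -0.156 and 0.1.

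Krt19 varied from liver to liver together with Krt7 and with Spp1, though Krt7 was well above background on 4 of the 8 arrays only, so its relations rest in part on values near background. Over the 8 arrays Krt19 and Krt7 correlated at Pearson r = 0.904 (exact permutation p = 0.00382, adjusted p = 0.0219 over 21 relations) and Spearman rho = 0.738 (exact permutation p = 0.0458, adjusted p = 0.16). Krt19 and Spp1 correlated at r = 0.833 (exact permutation p = 0.00265, adjusted p = 0.0219) and rho = 0.905 (exact permutation p = 0.00456, adjusted p = 0.0479). Without Tx replicate 2 and nonTx replicate 1, farthest from the median of Krt19, r was 0.792 for Krt7 and 0.745 for Spp1. With each group's mean taken off, r was 0.973 and 0.836. Each group holds 4 arrays, too few for a value of its own.

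Sox9, Pkhd1 and Cldn7 showed no relation to Krt19 that passed the test. For Sox9 r was -0.652 (exact permutation p = 0.0875, adjusted p = 0.23), -0.046 without the same 2 arrays, and -0.809 with each group's mean taken off. For Pkhd1 r was 0.03 (exact permutation p = 0.944, adjusted p = 0.944). For Cldn7 r was 0.534 (exact permutation p = 0.174, adjusted p = 0.332). Krt7 and Spp1 gave r = 0.726 (exact permutation p = 0.054, adjusted p = 0.162), and 0.205 without Tx replicates 2 and 4. Spp1 and Cldn7 gave r = 0.751 (exact permutation p = 0.039, adjusted p = 0.136), and -0.182 without Tx replicates 1 and 2.

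Markers of the mesothelium, the cell layer that covers the liver and also makes keratins 7 and 19, moved with the same markers. Of 8 listed genes 7 were on the array and 6 tested, 0 of them under 0.05 unadjusted, against 13.9% of all tested genes in either direction. Upk3b, Upk1b, Gpm6a and Krt14 entered the test only through nonTx, so the direction of the list is partly fixed by that filter and is not read here. Msln and Wt1 were well above background on 3 Tx arrays and 4 nonTx arrays each. The mean log2 level of the 6 was -2.34, -5.28, -3.36 and -3.83 in Tx replicates 1 to 4, against -3.61, -2.73, -2.63 and -2.86 in nonTx replicates 1 to 4. Msln, mesothelin, stood at 81.8%, 2.21%, 41.2% and 28.7% in Tx and 19.9%, 50.1%, 60.6% and 64.0% in nonTx, a log2 difference of -1.05 ± 0.94 (SE; limma adjusted p = 0.616). Tx replicate 2, lowest in Krt19, Krt7 and Spp1, was lowest in Msln too, and Tx replicate 1, highest in Krt19 and Spp1, was highest. The smallest p of the list belonged to Upk1b, a uroplakin of mesothelial cells, at -1.03 ± 0.50 (SE; limma adjusted p = 0.399). It was well above background on only 2 Tx arrays, against 4 nonTx arrays, so the size of that difference rests partly on values near background.

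The relations of this mean rest in part on values near background, since Krt7 and Upk3b were well above it on 4 of the 8 arrays each, Gpm6a and Krt14 on 5 each and Upk1b on 6. The mesothelial mean correlated with Krt7 at r = 0.916 (exact permutation p = 0.00417, adjusted p = 0.0219; rho = 0.738, exact permutation p = 0.0458, adjusted p = 0.16). With Krt19 it gave r = 0.881 (exact permutation p = 0.0034, adjusted p = 0.0219; rho = 0.762, exact permutation p = 0.0368, adjusted p = 0.16), and with Spp1 r = 0.866 (exact permutation p = 0.00613, adjusted p = 0.0257; rho = 0.905, exact permutation p = 0.00456, adjusted p = 0.0479). Krt7, Upk3b, Upk1b, Gpm6a and Krt14 entered only through nonTx, so a group difference shared by both sides is partly fixed by that filter. The p-values over the 8 arrays include that difference and do not show a relation apart from it. With each group's mean taken off, r was 0.897 for Krt7, 0.925 for Krt19 and 0.945 for Spp1. On that scale r was 0.705 for Cldn7, -0.709 for Sox9 and -0.137 for Pkhd1, with no p. Without Tx replicates 1 and 2 the r values were 0.864 for Krt7, 0.711 for Krt19 and 0.685 for Spp1. It gave r = 0.6 with Cldn7 (exact permutation p = 0.116, adjusted p = 0.244), -0.364 with Sox9 (exact permutation p = 0.396, adjusted p = 0.49) and -0.299 with Pkhd1 (exact permutation p = 0.489, adjusted p = 0.571). The part of mesothelial RNA in the keratin and Spp1 signals was not tested.

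**Figure D5:**
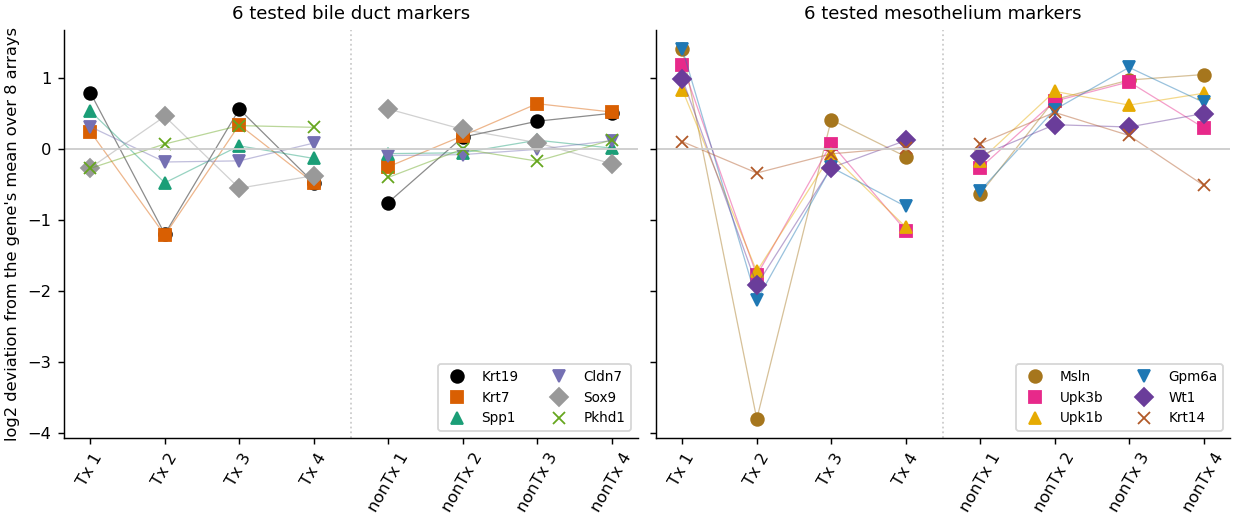
Log2 deviation of each gene from its own mean over the 8 arrays, for the 6 tested bile duct markers (left panel) and the 6 tested mesothelium markers (right panel), Tx arrays left of nonTx arrays; thin lines join the values of 1 gene and imply no order among replicates. Krt19 and Krt7 are lowest in Tx replicate 2, where 5 of the 6 mesothelium markers are lowest too.

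Transcripts of other glands stood out in 2 livers. Tx replicate 4 read 35421% for Bpifa2, a protein of saliva, which lay between 1.09% and 59.7% on the other 7 arrays, and 6815% for Dcpp1, also of saliva, which lay between 4.11% and 11.9% elsewhere. This list of 12 salivary genes was made after those values were seen. The ducts of salivary glands also make Krt19, Krt7 and Cldn7, so the markers were fitted without that array. The log2 difference was then -0.024 for Krt19, -0.48 for Krt7, 0.003 for Cldn7, -0.30 for Sox9, 0.029 for Spp1 and 0.15 for Pkhd1, and none passed the test.

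NonTx replicate 3 stood apart for 4 pancreatic enzymes. Cpa1, a carboxypeptidase, read 56.5% there and at most 4.88% on the other 7 arrays. Cpb1, another carboxypeptidase, read 32.7%, against at most 3.14% elsewhere, Pnlip, pancreatic lipase, 17.4%, against at most 3.68%, and Prss2, a trypsinogen, 8.72%, against at most 1.58%. These 4 genes were well above background on no other array and were not tested. Of the listed enzymes that were tested, Cela2a (290%) and Cel (24.0%) were also highest in nonTx replicate 3. Ctrb1 and Amy2a5 were not, with their highest values in Tx replicate 3 (218%) and Tx replicate 4 (1769%). The ducts of the pancreas also make Krt19, Sox9 and Cftr. Without that array the log2 difference was -0.051 for Krt19, -0.43 for Krt7, 0.03 for Cldn7, -0.395 for Sox9, 0.027 for Spp1 and 0.2 for Pkhd1, and none passed the test.

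Among 14982 genes measured on all arrays, those whose levels ran most like each marker over the 8 arrays are given as a description only, with no p. They were Anxa13 (r = 0.964), Nbl1 (0.95) and Tgfb1i1 (0.942) for Krt19. Lnpk (0.957), Tgfbr1 (0.953) and Dpt (0.951) ran closest to Spp1. For Sox9 they were Ino80b (0.973), Zfp800 (0.968) and Xbp1 (0.962). For Pkhd1 they were Paox (0.983), Mup17 (0.979) and Snu13 (0.975), and for Cldn7 Fgfr1 (0.97), Epha7 (0.969) and Tmem68 (0.951).

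The share of probes well above background was 55.45%, 52.51%, 52.15% and 51.1% in Tx replicates 1 to 4 and 54.25% to 57.13% in nonTx, so 3 Tx arrays lay below every nonTx array, and 0 spots were saturated. The part of this in the dim genes that passed only through nonTx was not tested. All 8 lay on 1 slide, with the Tx arrays in one column of positions and the nonTx arrays in the other, so position and group cannot be told apart. Other cell types had their own single genes of smallest p, by limma. T cell genes had a median of -0.53, with 2 higher in Tx, Cd3e and Cd247, and 6 lower. Their smallest p belonged to Cd3d, a chain of the T cell receptor complex, at -1.17 ± 0.14 (SE; adjusted p = 0.0576). B and plasma cell genes had a median of 0.33, with 6 higher and 1 lower. They were led by Jchain, which joins antibody polymers, at 1.36 ± 0.22 (SE; adjusted p = 0.102). The stellate cell and portal fibroblast list had a median of -0.15, with 3 genes higher and 5 lower. Eln, among the lower, entered the test only through nonTx. The list was led by Thy1, a surface protein of portal fibroblasts, the cells around the ducts, and also of T cells, at -0.85 ± 0.16 (SE; adjusted p = 0.164). Which cells gave the Thy1 signal was not tested. The sinusoidal endothelium list had a median of -0.026, with 4 genes higher and 4 lower. It was led by Clec4g at 0.17 ± 0.09 (SE; adjusted p = 0.418). The hepatocyte list had a median of 0.009, with 6 genes higher and 2 lower. Its smallest p belonged to Ttr, transthyretin, among the 2 lower, at -0.37 ± 0.08 (SE; adjusted p = 0.185). Exocrine pancreas genes had 4 of 8 tested, 3 higher and 1 lower, with a median of 0.32. They were led by Ctrb1, a chymotrypsinogen, at 0.35 ± 0.25 (SE; adjusted p = 0.525). The part of these cells in the duct marker values was not tested.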

How the data were processed

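Liver RNA was hybridised to 8 one-colour arrays, 4 Tx and 4 nonTx, with 0.5 ug labelled per array, per the labels. The scanner intensity used is background-subtracted, made by the authors with Feature Extraction, version 10.7.1.1 according to the file headers and 9.1 in the submitters' processing notes. The deposited table repeats these intensities (gap up to 2e-06 on the log2 scale for probes with 1 spot), and its log2 values were scaled by the authors to the 75th percentile, then median-centred per probe, which was rebuilt here within 0.0016.

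Computed here was log2 intensity minus each array's 75th percentile. Control spots were left out, outlier-flagged spots were set to missing (54 to 120 spots per array), and spots of 1 probe were averaged. Probes well above background on 3 or more arrays of either group of 4, with at least 2 values per group, were fitted with limma 3.58.1 in R 4.3.3 (lmFit, eBayes with trend), with Benjamini-Hochberg adjustment over 30957 probes and a threshold of 0.05. The fit was also run on simulated independent normal values without array or position effects, which checks the code and not these data. The 75th percentile signal was 225 to 330 in Tx and 274.2 to 301.9 in nonTx, and the number of arrays limits the precision. The files' gene symbols were brought up to date by Entrez ID, with 43901 of 46119 probes matched and 1276 symbols changed.

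The brightest tested probe stood for a gene. Named were all markers, up to 3 genes per surrounding list with p under 0.05 (filled up to 2), the smallest p of each cell type list, and the 3 genes most like each marker. Members and lists were chosen with earlier results of these data known. The replicate numbers did not pair the arrays (correlations of deviations 0.045, 0.081, 0.099 and -0.011). The alternatives tried were other scalings, background corrections, filters and variance settings, the authors' log2 values, blocking on the replicate number, averaging a gene's probes and leaving out each array.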

Additional observations from a re-analysis of the deposited data

Results flagged for a closer look

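Of 34 groups of 4 arrays examined for a single distant value, 1 held one, where chance gives about 1 in 20. Notch2 in Tx replicate 2 stood at 362% of the array's 75th percentile, above the other Tx arrays, which lay between 299% and 304%. Its gap to the nearest of them was 0.917 of the group's range, past Dixon's 95% critical value.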

How the results depend on the processing

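No marker probe passed the test under any of the alternatives. The number of probes called over the whole array was 0 here and 2 with normexp, 6 with scaling to the array median, 1 with the authors' log2 values, 1 with no variance trend, 5 with robust variance, 7 with array weights and 1 with a replicate block, whose numbers did not pair the arrays. It lay between 0 and 188 with 1 array left out, and 188 came without Tx replicate 2. The median of the markers ran from -0.265 to 0.118 over all alternatives, within the spread between replicates. Scaling to the array median moved the median of all probes to 0.116, against 0.015.

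Signs turned for Krt19 with normexp (0.013) and without Tx replicate 2 (0.217, with a range of -0.447 to 0.217 when 1 array was left out), for Krt7 with normexp (0.033), and for Pkhd1 with the mean of its probes (-0.334). Cldn7 turned with scaling to probes above background (-0.029) and without Tx replicate 1 (-0.074, range -0.074 to 0.092), and the second Sox9 probe with normexp (0.052). Spp1 turned with normexp (0.057), median scaling (0.088), and without Tx replicate 2 (0.144), Tx replicate 4 (0.029) or nonTx replicate 3 (0.027), with a range of -0.193 to 0.144.

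The cilium list's median was -0.079 with the mean of each gene's probes, -0.05 with scaling to probes above background and 0.106 with median scaling. That of the Notch list was -0.017 with the stricter filter, 0.021 with normexp, and from -0.224 to -0.008 with 1 array left out. The ductular list gave 0.154 with median scaling, and the junction list from -0.094 to 0.08 with 1 array left out. The cause was not tested. The stricter filter, above background on all arrays, left no value for Krt7 and Sct. Normexp used the median spot signal. A slide block could not be fitted, since there was 1 slide. Signal over background limits Krt7, Epcam, Cftr, Sctr and Sct.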
